A study of Bos taurus with 8 samples.

Results

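Homeobox transcription factors of the DLX, MSX, BARX and NKX families, together with the homeodomain-only protein *HOPX*, were examined in bovine articular chondrocytes. The 10 genes, *DLX3*, *DLX4*, *DLX5*, *DLX6*, *MSX1*, *MSX2*, *BARX1*, *HOPX*, *NKX3-2* and *NKX6-1*, were picked by name from the 24596 genes of the deposited count table, each matched to a single row. RNA-Seq was done on chondrocytes of the superficial zone (SZCs), next to the joint space, and of the deep zone (DZCs), with 2 libraries from each. The cells came from the knee joints of wild-type calves 1 to 2 weeks of age, and both zones were grown for 3 days in medium with serum before RNA was taken. The study's methods call the libraries biological duplicates of each zone, and the labels do not say which calf each library came from. The labels name no other treatment and no transgene, so zone was the only stated difference.

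Homeobox factors bind DNA through a homeodomain and give skeletal tissues their position and fate. DLX genes lie in adjacent pairs in mammalian genomes, *DLX3* beside *DLX4* and *DLX5* beside *DLX6*. DLX factors act in jaw, limb, skin and bone, and *DLX5* and *DLX6* are known for promoting chondrocyte maturation. MSX factors are repressors that respond to BMP signals in limb buds and the skull. *NKX3-2* keeps chondrocytes immature by repressing *RUNX2*, and *BARX1* marks jaw mesenchyme and developing joints. *HOPX* has a homeodomain that does not bind DNA and works through partner proteins such as serum response factor. *NKX6-1* is best known from pancreatic beta cells and the ventral neural tube.

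Library totals lay between 19918970 and 21890549 counts, and the floor of detection, set at 3 counts, was 0.129 to 0.187 CPM. CPM, the count scaled to a common library size, was taken after scaling by edgeR's trimmed mean of *M* values (TMM). The factors of that scaling ran from 0.735 in DZC replicate 1 to 1.14 in SZC replicate 2. The zone labels were checked with *PRG4*, the lubricin gene, which had 69682 and 46976 counts in SZCs against 246 and 1372 in DZCs. All 8 chondrocyte markers listed, among them *COL2A1*, *ACAN* and *SOX9*, were detected in all 4 libraries. All 8 had log2 fold changes below 0 (median -1.11), and for 5 of them both DZC libraries lay above both SZC libraries. *MATN3*, a matrilin of cartilage matrix, was called higher in DZCs (log2 fold change -2.04, FDR 0.00212), while *COL2A1* was 3.75-fold higher there without a call (FDR 0.0658). The other superficial zone markers, *VIT*, *EPHA3* and *THBS4*, were called higher in SZCs, with log2 fold changes of 5.47, 5.56 and 4.06. The part of these markers in the zone differences of the homeobox factors was not tested. Agreement was closer within SZCs than within DZCs: the median gene differed between replicates by 0.52 on the log2 scale in DZCs and by 0.23 in SZCs.

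Of the 10 homeobox factors, 3 were higher in SZCs and 1 was higher in DZCs at a false discovery rate (FDR) under 0.05. *HOPX*, *DLX3* and *DLX4* were the ones higher in SZCs, by 7.78-fold, 6.10-fold and 5.13-fold, and *NKX6-1* was 6.49-fold higher in DZCs. The other 6, *DLX5*, *DLX6*, *MSX1*, *MSX2*, *BARX1* and *NKX3-2*, were not called, and their log2 fold changes lay between -0.92 and 0.43. In bulk RNA, fewer cells that express a gene and less RNA per cell cannot be told apart. All 10 genes passed edgeR's default filter on low counts, which asks for enough counts in only 2 libraries. *NKX6-1* passed on its DZC libraries and *DLX4* needed its SZC libraries, the zone where each was high. Without the filter *DLX4* was not called (FDR 0.0685) and *NKX6-1* was close to the threshold (FDR 0.0488), both by edgeR's exact test. Zones were compared by edgeR's exact test with Benjamini–Hochberg adjustment over the 12857 genes tested. In that test 2.23% of all tested genes were called as higher in SZCs and 0.7% as higher in DZCs, against 30% and 10% of the 10 factors, which were chosen with earlier results of these counts known. The median log2 fold change was -0.06 over the 10 factors and -0.04 over all genes tested. With libraries scaled by their totals alone, the median of all genes shifted by 0.30 and the share of calls that were higher in SZCs was 86.7%, against 76.1% with TMM.

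**Figure D1:**
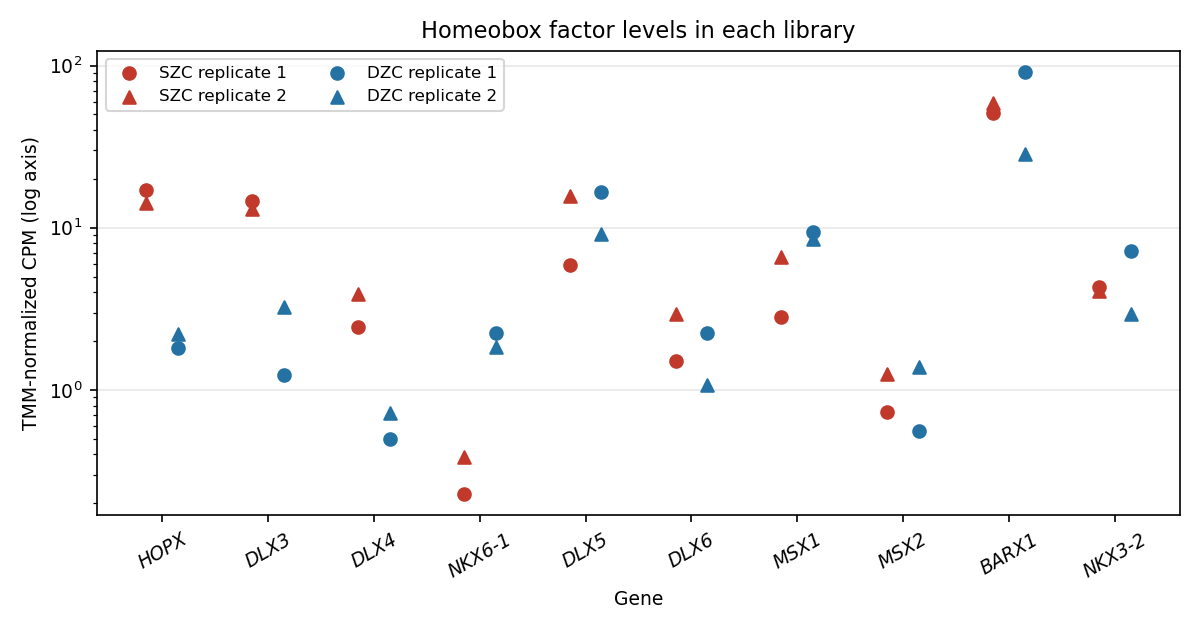
Level of each of the 10 homeobox factors in TMM-normalized CPM (log axis), with a point for each library, red for SZCs and blue for DZCs, circles for replicate 1 and triangles for replicate 2. The red points lie above the blue points for *HOPX*, *DLX3* and *DLX4* and below them for *NKX6-1* and *MSX1*. Levels of different genes are not divided by transcript length and cannot be compared with each other.

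**Figure D2:**
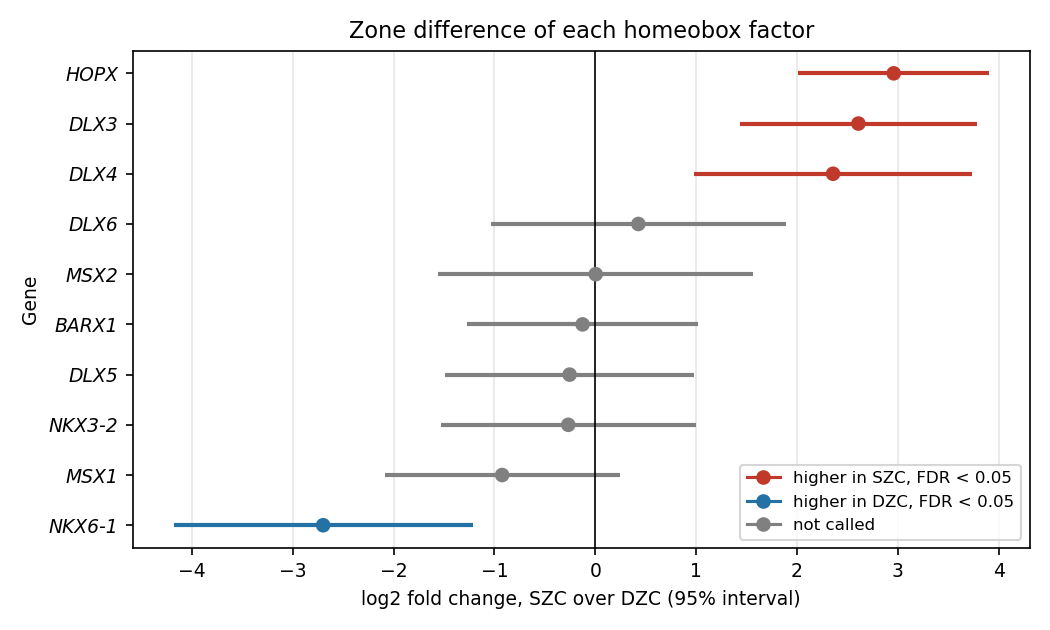
Log2 fold change of SZCs over DZCs for each factor (point) with its 95% interval (line), from the gene-wise dispersion of edgeR. The intervals of *HOPX*, *DLX3* and *DLX4* lie above 0 and that of *NKX6-1* lies below 0, while the 6 grey intervals span 0.

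*HOPX* (ENSBTAG00000002333) showed the clearest zone difference of the 10 factors. The SZC libraries held 377 and 329 counts of it, the DZC libraries 29 and 49. In CPM this was 17.1 and 14.2 in SZCs against 1.80 and 2.20 in DZCs, so the lower SZC library stood well above the higher DZC library. SZCs averaged 15.7 ± 2.09 CPM and DZCs 2.00 ± 0.28 CPM (SD, n = 2 for each zone). On the log2 scale SZCs exceeded DZCs by 2.96 ± 0.48 (SE; 95% interval 2.01 to 3.90), at an FDR of 1.80e-06. Replicates of a zone differed by 1.21-fold in SZCs and 1.22-fold in DZCs, both far below the zone difference. The quasi-likelihood test of edgeR did not call *HOPX* (FDR 0.125), nor did the exact test without SZC replicate 1 (FDR 0.207), whereas leaving out any single library gave log2 fold changes from 2.82 to 3.13.

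*DLX3* and *DLX4*, which lie next to each other in the bovine genome, were both higher in SZCs. *DLX3* (ENSBTAG00000017409), a Distal-less factor needed for hair, tooth and bone formation, had 321 and 302 counts in SZCs but only 20 and 72 in DZCs. Its level was 14.6 and 13.0 CPM in the SZC libraries against 1.24 and 3.23 CPM in the DZC libraries. The SZC libraries were alike, while DZC replicate 2 was 2.59-fold above DZC replicate 1 and still far below either SZC library. Mean levels were 13.8 ± 1.11 and 2.24 ± 1.40 CPM (SD, n = 2 for each zone). *DLX3* was thus higher in SZCs by 2.61 ± 0.60 on the log2 scale (SE; 95% interval 1.44 to 3.78), at an FDR of 0.00287.

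*DLX4* (ENSBTAG00000007353), its partner in the pair, had 54 and 90 counts in SZCs and 8 and 16 in DZCs. This gave 2.45 and 3.88 CPM against 0.50 and 0.72 CPM. Counting error alone put the lower SZC library between 1.84 and 3.20 CPM and the higher DZC library between 0.41 and 1.16 CPM (exact Poisson 95% intervals), so these did not overlap. The zones averaged 3.17 ± 1.01 and 0.61 ± 0.16 CPM (SD, n = 2 for each zone), a difference of 2.36 ± 0.70 on the log2 scale (SE; 95% interval 0.98 to 3.74), at an FDR of 0.0408. The call of *DLX4* was close to the threshold. It was made under 2 of 8 other tests and settings, whose FDR ran from 0.0333 to 0.304, and its log2 fold change ran there from 2.35 to 2.63. *DLX3* was called under 7 of the same 8, missed only by the quasi-likelihood test of edgeR (FDR 0.235). Without either SZC library, *DLX3* and *DLX4* were not called, with FDRs of 0.495 and 0.855 without SZC replicate 1 and of 0.199 and 1 without SZC replicate 2 (edgeR's exact test). *DLX4* was also not called without DZC replicate 1 (FDR 0.0645). The differences stayed on the same side, with log2 values of 2.53 and 2.70 for *DLX3* without SZC replicate 1 and 2, 2.65 and 2.00 for *DLX4*, and 2.14 for *DLX4* without DZC replicate 1. The size of the *DLX3* difference rested more on the DZC libraries, at 2.10 without DZC replicate 1 and 3.48 without DZC replicate 2.

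*NKX6-1* (ENSBTAG00000002518) went the other way. Its counts were few, 5 and 9 in SZCs and 36 and 41 in DZCs. Its level was 0.23 and 0.39 CPM in SZCs and 2.24 and 1.84 CPM in DZCs. Exact Poisson 95% intervals ran up to 0.74 CPM for the higher SZC library and down to 1.32 CPM for the lower DZC library. The zones therefore did not overlap in counting error. The SZC levels were above the floor of 3 counts, but the interval of SZC replicate 1 (0.07 to 0.53 CPM) reached below it. The mean levels were 0.31 ± 0.11 CPM in SZCs and 2.04 ± 0.28 CPM in DZCs (SD, n = 2 for each zone). The difference of SZCs from DZCs was -2.70 ± 0.76 on the log2 scale (SE; 95% interval -4.18 to -1.22), at an FDR of 0.0269. The gene was called under 3 of the 8 other tests and settings, with FDRs from 0.02 to 0.281. It was not called without SZC replicate 1 (FDR 1) or without SZC replicate 2 (FDR 0.951), when a single SZC library with few counts was left, although its log2 fold changes were then -2.38 and -3.13. It was called without DZC replicate 1 (FDR 0.0353) and without DZC replicate 2 (FDR 0.00653).

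**Figure D3:**
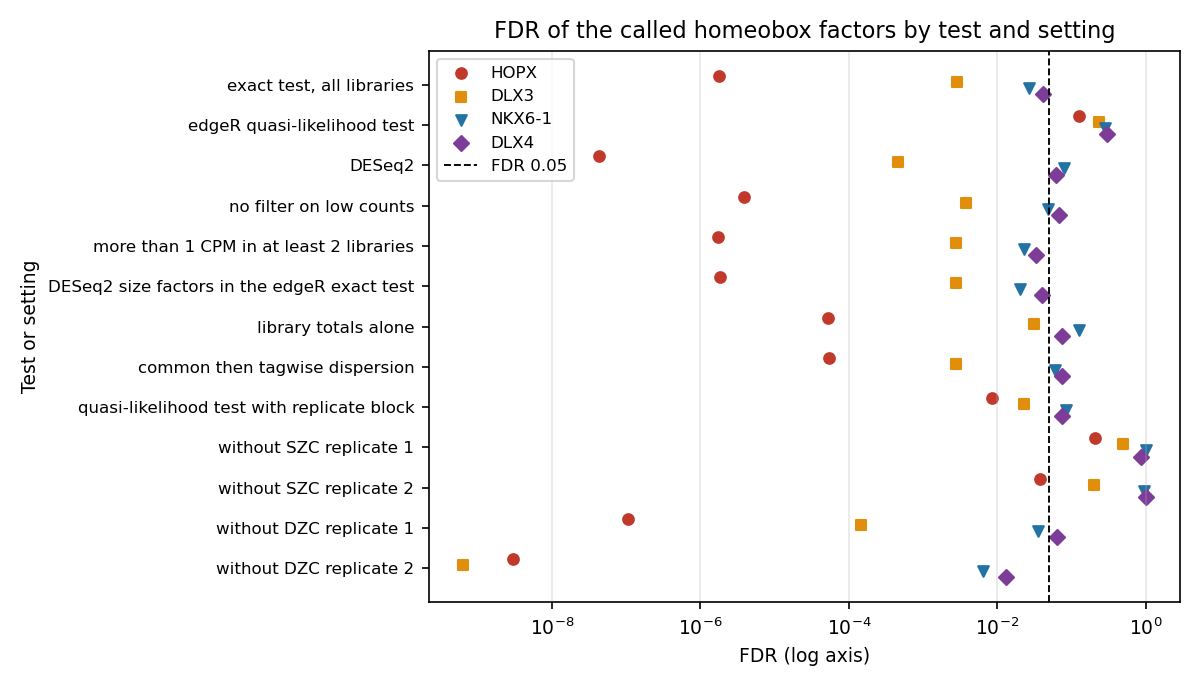
FDR (log axis) of the 4 called factors by the exact test on all libraries and under each other test, setting or left-out library. The dashed line marks 0.05. *HOPX* and *DLX3* lie left of the line under 7 of the 8 other tests and settings, *NKX6-1* under 3 and *DLX4* under 2, and all 4 lie right of it with the quasi-likelihood test and without SZC replicate 1.

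*DLX5* and *DLX6*, the other adjacent pair, were present in both zones without a called difference. *DLX5* (ENSBTAG00000018645) had 129 and 364 counts in SZCs and 266 and 205 in DZCs, or 5.86 and 15.7 CPM against 16.5 and 9.19 CPM. The values of the zones interleaved, with the lowest and the second-highest library both from SZCs. Between zones it differed by -0.25 on the log2 scale (95% interval -1.49 to 0.98, FDR 1), or by 0.14 with scaling by library totals. With a single library left out, this ran from -1.14 (without SZC replicate 2) to 0.28 (without SZC replicate 1). *DLX6* (ENSBTAG00000021458) had 33 and 68 counts in SZCs and 36 and 24 in DZCs, or 1.5 and 2.93 CPM against 2.24 and 1.08 CPM. The difference of 0.43 on the log2 scale had a 95% interval from -1.04 to 1.89 (FDR 1). It was -0.14 without SZC replicate 2 and 1.04 without DZC replicate 1. *DLX5* and *DLX6* were lower in replicate 1 than in replicate 2 of the SZCs and higher in replicate 1 than in replicate 2 of the DZCs, as were *MSX1*, *BARX1* and *NKX6-1*. The intervals do not show that the zones were alike, since each reaches about 1 or more on the log2 scale in either direction.

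Neither MSX gene was called. *MSX1* (ENSBTAG00000010875) had 62 and 154 counts in SZCs and 151 and 191 in DZCs. Both DZC libraries, at 9.39 and 8.56 CPM, were above the SZC libraries, at 2.82 and 6.64 CPM. The SZC libraries differed by 2.36-fold, and the log2 fold change of -0.92 (standard error 0.60, 95% interval -2.09 to 0.24) had an FDR of 0.793. *MSX2* (ENSBTAG00000013873), with 16 and 29 counts in SZCs and 9 and 31 in DZCs, was the factor with the log2 fold change nearest 0. It was at 0.73 and 1.25 CPM in SZCs and 0.56 and 1.39 CPM in DZCs, so the DZC libraries gave both the highest and the lowest value. Its log2 fold change was 0.00 (0.0041 before rounding), with a 95% interval from -1.56 to 1.57. The value was -0.48 without DZC replicate 1 and 0.83 without DZC replicate 2, so its sign depended on single libraries.

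*BARX1* and *NKX3-2*, which act in early cartilage and joint tissue, depended on which DZC library was read. *BARX1* (ENSBTAG00000004468) had 1118 and 1368 counts in SZCs and 1470 and 633 in DZCs. The SZC libraries lay close together at 50.8 and 58.9 CPM, between DZC replicate 1 at 91.4 CPM and DZC replicate 2 at 28.4 CPM. With all libraries it differed by -0.13 on the log2 scale (95% interval -1.27 to 1.02, FDR 1). Without DZC replicate 1 it was 0.96, called higher in SZCs (FDR 0.0289), and without DZC replicate 2 it was -0.72 (FDR 0.0531), so the direction was set by a single DZC library. *NKX3-2* (ENSBTAG00000010896) had 95 and 94 counts in SZCs and 115 and 66 in DZCs. It had nearly the same level in both SZC libraries, 4.32 and 4.05 CPM, and stood at 7.15 and 2.96 CPM in the DZC libraries. The zone difference was -0.27 on the log2 scale (95% interval -1.53 to 1.00, FDR 1), and 0.15 with scaling by library totals, where that of *BARX1* was 0.33.

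Among the 10 factors, the libraries of the zones did not overlap for 5 genes, with SZCs above DZCs for *DLX3*, *DLX4* and *HOPX* and DZCs above SZCs for *MSX1* and *NKX6-1*. Over all tested genes 21% had both SZC libraries above both DZC libraries and 20.5% had the reverse, so a lack of overlap was common in these data. The median replicate difference of the 10 factors was 0.40 in SZCs and 0.81 in DZCs on the scale of log2(CPM + 0.5). This was above the medians of all tested genes on the same scale, 0.23 and 0.52. In SZCs, replicate 2 was the higher library for 7 of the 10 factors. In DZCs, replicate 1 was the higher library for 6 of the 10 factors and replicate 2 for 4.

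**Figure D4:**
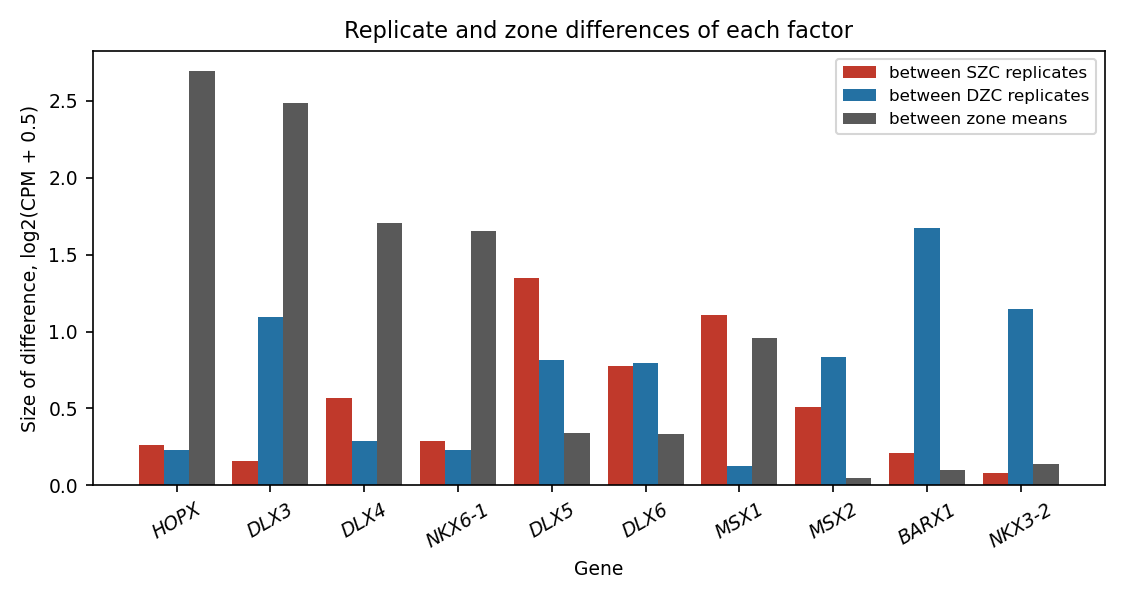
Size of the difference between SZC replicates (red), between DZC replicates (blue) and between zone means (grey) for each factor, all on the log2(CPM + 0.5) scale. The grey bars of *HOPX*, *DLX3*, *DLX4* and *NKX6-1* exceed both replicate bars, as genes called for their zone difference tend to, whereas for the other 6 factors at least 1 replicate bar is the tallest.

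Ratios of related genes were compared within libraries, on log2(CPM + 0.5). They also depend on transcript lengths, which are the same in all libraries, so only changes in a ratio can be read. The log2 ratio of *DLX5* to *DLX6* was 1.67 and 2.24 in SZCs and 2.64 and 2.62 in DZCs. That of *DLX3* to *DLX4* was 2.35 and 1.63 in SZCs and 0.81 and 1.61 in DZCs. That of *MSX1* to *MSX2* was 1.43 and 2.03 in SZCs and 3.22 and 2.26 in DZCs. For these 3 pairs the zones did not overlap, with mean differences of -0.67, 0.78 and -1.01 between SZCs and DZCs, although *DLX3* to *DLX4* differed by only 0.01 between its nearest libraries and its zones overlapped with a pseudocount of 0.25 (exact permutation p = 0.667). With a single library left out, these mean differences ran from -0.96 to -0.39, from 0.37 to 1.18 and from -1.49 to -0.53, in the same order. The log2 ratio of *DLX5* to *NKX3-2*, at 0.40 and 1.83 in SZCs and 1.16 and 1.49 in DZCs, overlapped. Exact two-sided permutation tests gave p = 0.333 for each of the first 3 pairs, the smallest p that 2 libraries against 2 allow, and p = 1 for the fourth, so none of the 4 ratios could pass a threshold of 0.05. Their Benjamini–Hochberg adjusted values were 0.444 and 1.

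Other homeobox genes of limb, joint and skeleton gave a background to these factors. Of 54 genes listed, 51 were found in the count table by symbol, 30 passed the filter on low counts and 0 were called by edgeR's exact test. Of the 30, only *IRX3* had an unadjusted p under 0.05, with 6 and 22 counts in SZCs and 18 and 137 in DZCs. Of all the genes listed, DESeq2 and edgeR's quasi-likelihood test also called 0, with 4 at an unadjusted p under 0.05 in each. Calls appeared when a DZC library was left out, as they did over all genes, of which 6.67% were called without DZC replicate 1 and 20.7% without DZC replicate 2. Without DZC replicate 1, 5 of the 35 then tested were called, with *SATB1* higher in SZCs and *DLX2*, *IRX3*, *IRX5* and *EMX2* higher in DZCs. Without DZC replicate 2, 7 of 32 were called, all higher in SZCs, among them *ZEB2* and *PRRX1*, a share near that of all genes. The median log2 fold change of the 30 was 0.34, with 19 above 0 and 11 below, against a median of -0.04 for all tested genes. *PITX1*, which specifies the hind limb, was among the 4 genes named from the list for their read numbers, with SZCs at 95.7 ± 14.3 CPM and DZCs at 116 ± 39.7 CPM (SD, n = 2 for each zone). The 95% interval of its log2 fold change, -0.28, ran from -1.08 to 0.51. *PRRX2* (0.03), a limb mesenchyme factor, *TGIF1* (-0.38), a TGF-β co-repressor, and *CUX1* (0.49) were chosen in the same way and are given with their log2 fold changes. Such levels depend on transcript length and do not rank the genes. *DLX1* and *DLX2*, the remaining members of the DLX family, did not pass the filter, with 0 counts of *DLX1* in all 4 libraries. *DLX2* had 2 and 1 counts in SZCs and 4 and 17 in DZCs.

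**Figure D5:**
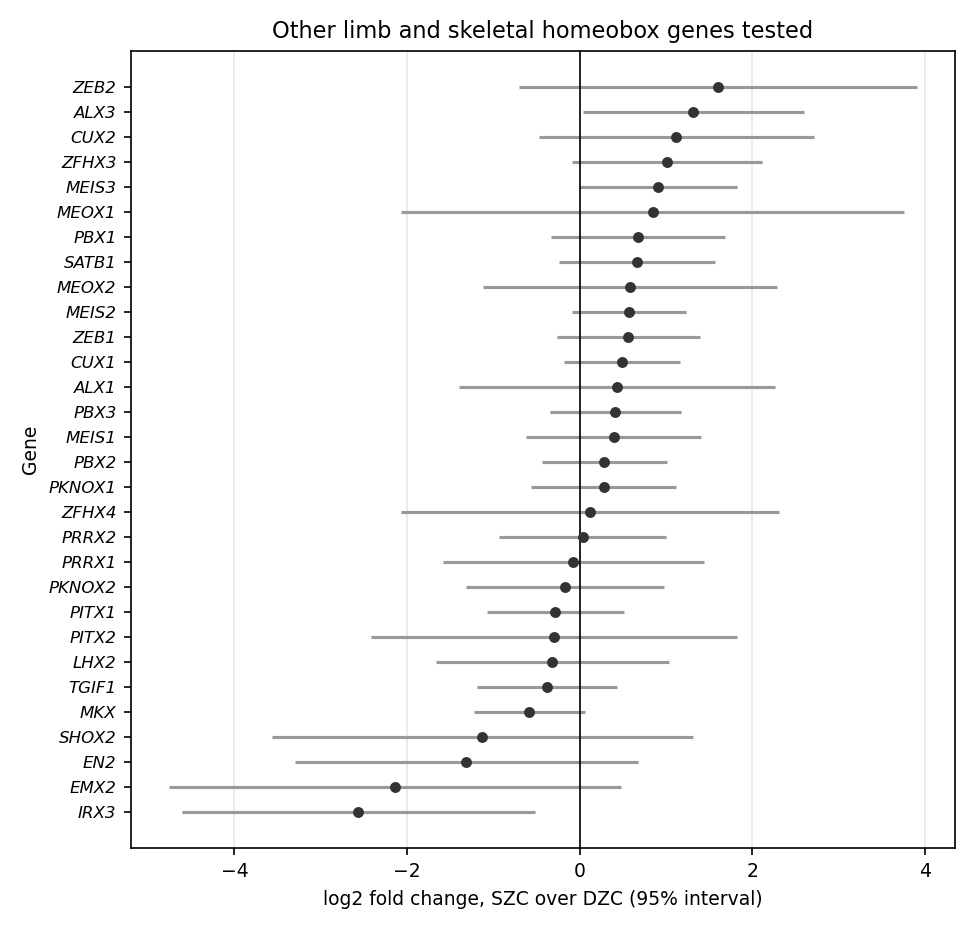
Log2 fold change of SZCs over DZCs (point) with its 95% interval (line) for the 30 tested genes of the limb and skeletal homeobox list, which leaves out HOX genes and the 10 factors. Of these, 19 points lie above 0 and 11 below, and none was called at an FDR of 0.05 by edgeR's exact test.

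Markers of other cell types were read in the same libraries. Epithelial markers, listed because *DLX3* acts in skin, summed to 0.32 and 1.16 CPM in SZCs and to 0.44 and 2.06 CPM in DZCs over all 5 genes. These sums overlapped between the zones, and *KRT5* was at 0 and 6 counts in SZCs and 1 and 5 in DZCs. Immune markers (7 genes) summed to 17.5 and 28.4 CPM in SZCs and 6.78 and 13.0 CPM in DZCs, higher in SZCs as were *HOPX*, *DLX3* and *DLX4*. From SZC replicate 1 to replicate 2 this sum rose, as did *DLX4*, while *HOPX* and *DLX3* fell. *CD14* made up most of the sums. *LYZ*, at 1 and 4 counts in SZCs and 5 and 5 in DZCs, went the other way. Of the immune markers 4 were tested and 0 were called by edgeR's exact test (*CD14* at an unadjusted p under 0.05, 0 called by its quasi-likelihood test), with *PTPRC* at 6, 14, 0 and 9 counts and *CD3E* at 0, 3, 1 and 0. *COL1A2* of the tendon and fibrous markers and *KDR* of the endothelial markers had both SZC libraries above both DZC libraries, with log2 fold changes of 1.77 and 2.88, without a call (FDR 0.447 and 0.435). In the same lists *MKX* and *VWF* had both DZC libraries above both SZC libraries, so each list held 1 gene in either direction, and 0 genes of either were called. The part of these epithelial, immune, fibrous and endothelial markers in the zone differences was not tested. Proliferation markers (5 genes) summed to 155 and 178 CPM in SZCs, 12.4 CPM in DZC replicate 1 and 272 CPM in DZC replicate 2. Between the DZC replicates *BARX1*, *NKX3-2*, *DLX5*, *DLX6*, *MSX1* and *NKX6-1* went opposite to these markers, and *DLX3*, *DLX4*, *MSX2* and *HOPX* went the same way. The part of proliferation in this was not tested. Markers of hypertrophy and bone (12 genes) summed to 122 and 123 CPM in SZCs and to 54.1 and 300.2 CPM in the DZC replicates. *SPP1*, osteopontin, made up most of these sums in SZCs, at 108 and 102 CPM against 18.9 and 201 CPM in DZCs. Of the 7 tested, 6 had log2 fold changes below 0 (median -2.23), but only *RUNX2* and *IHH* had both DZC libraries above both SZC libraries. *MMP13*, *IBSP*, *ALPL*, *COL10A1* and *SP7* had 140 to 468 counts in DZC replicate 2 and 0 or 1 in DZC replicate 1. *IHH* alone was called, with 13 and 5 counts in SZCs and 194 and 48 in DZCs, in the direction of *NKX6-1*. *RUNX2*, which *NKX3-2* is known to repress, was at 35 and 85 counts in SZCs and 120 and 383 in DZCs, a difference of -2.23 on the log2 scale (FDR 0.0608, edgeR).

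Genes whose pattern over the 4 libraries was most like that of *HOPX* were *TSHZ2*, *FABP4* and *GLT8D2*. Likeness was the Euclidean distance of centred log2(CPM + 0.5) values, which was 0.10, 0.13 and 0.14 for these genes. *TSHZ2*, a zinc finger homeobox factor, was at 19.6 and 15.9 CPM in SZCs and 2.30 and 2.73 CPM in DZCs. *FABP4*, a fatty acid carrier, was at 12.2 and 9.44 CPM against 1.18 and 1.57 CPM. The genes most like *NKX6-1* were *AS3MT*, an arsenic methyltransferase, *ANGPTL5* and *SPNS3*, at distances of 0.15, 0.17 and 0.21. With 4 libraries from 2 zones, any gene with a like fold change and close replicates is near in this measure.

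Neighbouring genes were read by their order in the RefSeq annotation of ARS-UCD2.0, chosen after the values of the factors had been seen. Beside the *DLX3* and *DLX4* pair, *ITGA3* had a log2 fold change of -0.83, *PDK2* one of -0.02, *SAMD14* one of 2.71 (FDR 0.109) and *KAT7* one of 0.01, and none of these was called by edgeR's exact test. Around *DLX5* and *DLX6*, *SLC25A13* (-0.63) and *SDHAF3* (-0.60) were likewise not called. The next genes on one side of *MSX1* were *CYTL1*, a secreted cytokine-like protein of cartilage, and *STK32B*, a kinase gene, and both were higher in SZCs. Their log2 fold changes were 4.89 (FDR 3.53e-12) and 3.53 (FDR 0.00725) by edgeR's exact test, whereas *MSX1* was the factor whose SZC libraries both lay below the DZC libraries without a call. On the other side of *MSX1*, *STX18* had a log2 fold change of -0.02. *ARHGAP24*, a GTPase regulator and the third gene from *NKX6-1*, was called higher in SZCs (log2 fold change 3.51, FDR 0.00801), opposite to *NKX6-1*. That annotation also places another gene over *DLX4* and a long noncoding RNA over *HOPX*. Since strand was not used in counting, reads of such genes cannot be told apart from those of *DLX4* and *HOPX*.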

How the data were processed

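RNA of cultured SZCs and DZCs was sequenced by the authors from SMART-Seq v4 libraries as 75-base single-end reads. The authors aligned them with STAR 2.5.2b to Ensembl build UMD 3.1, counted reads per gene without strand, and deposited unnormalized counts. Their second table, holding log2 fold changes and FDRs of their own comparison, served only to fill blank gene names (8 of 6119). Columns were matched to labels by zone and replicate number. No ATAC-Seq data were analysed here.

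The deposited counts were tested in edgeR 4.0.16 under R 4.3.3 (TMM, exact test, FDR 0.05, as in the study's methods), after edgeR's default filter on low counts, which those methods do not state. Standard errors came from the gene-wise dispersion. DESeq2 1.42.0, the quasi-likelihood test, other filters, scalings and dispersions, the quasi-likelihood test with a replicate block and each library left out were tried as alternatives. Scripts were tested on simulated data. Replicates differed by more than sampling noise (chi-square per degree of freedom 61.9 in SZCs and 303 in DZCs). The 10 factors and all gene lists were chosen with earlier results of these data known. Named genes are the 10 factors, from each list the called genes and up to 4 more by highest mean CPM, *PRG4* and *COL2A1* as checks, and the 3 genes nearest to *HOPX* and *NKX6-1*, the factors with the smallest p in each direction. *IRX3* and other homeobox genes behind small counts, *RUNX2*, *DLX1*, *DLX2*, marker examples and neighbouring genes were named after their values were seen. Symbols of 3 listed homeobox genes were not matched.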

Additional observations from a re-analysis of the deposited data

How the results depend on the processing

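With the quasi-likelihood test of edgeR, 0 genes were called in either direction, 0 of the 10 factors among them, although all 4 called factors and 1126 genes had an unadjusted p under 0.05. Scaling by library totals alone left 44 genes called higher in DZCs and 0 factors. DESeq2, the common then tagwise dispersion and the replicate block also called 0 factors higher in DZCs. The log2 fold change turned positive with library totals for *DLX5* (0.14), *BARX1* (0.33) and *NKX3-2* (0.15), and with the replicate block for *BARX1* (0.10). Leaving out each library in turn gave 58 to 2725 calls, with 52 to 1607 higher in SZCs and 6 to 1118 higher in DZCs, the fewest without SZC replicate 1 and the most without DZC replicate 2. In these fits the lone library was assumed to vary like the other zone. Between 0 and 3 factors were then called higher in SZCs, 0 to 1 higher in DZCs and 0 to 7 genes of the homeobox list. Log2 fold changes ran from -1.14 to 0.28 for *DLX5*, -0.14 to 1.04 for *DLX6*, -1.67 (without SZC replicate 2) to -0.44 (without SZC replicate 1) for *MSX1*, -0.48 to 0.83 for *MSX2*, -0.72 to 0.96 for *BARX1* and -0.76 to 0.50 for *NKX3-2*. The log2 ratio of *DLX5* to *NKX3-2* differed between zones by -0.92 to 0.51. The cause of these changes was not tested. The direction of *HOPX*, *DLX3*, *DLX4*, *NKX6-1* and *MSX1* was kept under every alternative run. Same-numbered libraries deviated together (correlation 0.42 across 12857 genes, which are not independent), but the sources do not say that a number marks a shared joint. The replicate block was fitted with the quasi-likelihood test. With the block this test called 347 genes, against 0 without it, and among the factors it called *HOPX* (FDR 0.00851, against 0.125 without the block) and *DLX3* (FDR 0.0231, against 0.235). *DLX4* (FDR 0.0742) and *NKX6-1* (FDR 0.0839) were not called with the block.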
